A study of Homo sapiens with 12 samples.

Results

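The nuclear genes of the respiratory chain are described here across 4 groups of human brain microvascular endothelial cells. They were taken by symbol: entries beginning with NDUFA, NDUFB, NDUFC, NDUFS or NDUFV and a number, UQCR, COX4 to COX8, or ATP5. Genes with other symbols, such as CYC1, were not taken, so the sets need not hold every nuclear-encoded subunit. Pseudogene symbols (2, ATP5EP2 and UQCRBP1) and the NDUFAF assembly factors were left out. This gave 85 of 23398 entries in the deposited table, 39 with symbols of complex I, 9 of complex III, 18 of complex IV and 19 of complex V. Of these, 77 encode a subunit or a tissue isoform of one. The other 8 match by symbol but were not counted as subunits: the readthrough entries NDUFC2-KCTD14 and ATP5J2-PTCD1, COX4NB (now EMC8), the accessory factors ATP5S and ATP5SL, the copies ATP5L2 and UQCRHL, and COX7A2L, a factor of chain supercomplexes.

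The respiratory chain is a series of protein complexes in the inner mitochondrial membrane. Complex I takes electrons from NADH, complex III passes them from ubiquinol to cytochrome c, and complex IV hands them to oxygen. All of these pump protons, and complex V, the ATP synthase, uses the proton gradient to make ATP. The core subunits that the mitochondrial genome encodes are joined by many small subunits from nuclear genes, so that both genomes are needed for assembly. Endothelial cells are known to make much of their ATP by glycolysis, and brain endothelium is known for a high content of mitochondria.

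RNA was sequenced from cells bought from 1 supplier and transfected for 48 h with siRNA. The 4 groups were siGlut1 in high glucose (HGSiG), non-silencing siRNA in high glucose (HGNS), siGlut1 in control medium (SiG) and non-silencing siRNA in control medium (NS). SLC2A1 encodes Glut1, the main glucose transporter of this endothelium, and the design asks how its loss and high glucose change the transcripts. The labels leave out the glucose concentrations, the time in high glucose, the number of donors and whether replicates were separate cultures, so p-values measure the spread between these libraries, which may be technical.

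Each group has 3 replicate numbers in the labels. The column of HGNS replicate 2 equals the mean of the other 2 in 23397 of 23398 entries and was left out, which leaves 11 libraries, 2 in HGNS and 3 in each other group. Totals were 40135082 to 90536476 counts, with a median of 49686182, and all counts were even. SLC2A1 stood at 7.09, 7.19 and 6.38 CPM (counts scaled to library size) in HGSiG, against 21.2 and 20.7 CPM in HGNS. It stood at 8.56, 9.05 and 6.26 CPM in SiG, against 25.7, 23.7 and 22.2 CPM in NS. All 10 endothelial markers were above 1 RPKM (reads per kilobase of length, scaled to library size), led by CDH5 at 393 and PECAM1 at 193 RPKM. Of the markers of other cells, those at 1 RPKM or more were 2 of 8 for pericytes and smooth muscle (RGS5 at 243 and ACTA2 at 10.8 RPKM), 1 of 6 for fibroblasts (COL1A2 at 3.24), 1 of 5 for leukocytes and microglia (CD68 at 26.3), 2 of 4 for neurons (TUBB3 at 41.9 and SYT1 at 6.99), 2 of 4 for epithelium (KRT18 at 162 and KRT8 at 5.35) and 0 of 5 for astrocytes. Of the defining markers, PDGFRB, CSPG4, COL1A1, GFAP, PTPRC and RBFOX3 were under 0.1 RPKM and CDH1 at 0. The 8 pericyte and muscle markers together, nearly all of it RGS5, ranged over 224 to 267 RPKM in HGSiG and 316 to 322 in HGNS. In SiG they ranged over 201 to 211 RPKM and in NS over 243 to 292. Besides RGS5 and ACTA2, none of the 8 had a mean over 0.248 RPKM. The part of these markers in the results below was not tested. In bulk RNA, fewer cells of a type and less RNA per cell cannot be told apart.

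The genes were among the more abundant transcripts of these cells. A count filter kept 14324 entries for testing, 79 of the 85 among them. The 79 had a median mean level of 60.6 RPKM, against 6.37 RPKM for all tested entries, and 73 of them reached 10 RPKM, as did 39.3% of all. Together the 85 took 0.677% to 0.779% of a library's total as scaled for CPM. Levels differed by complex. The median was 136 RPKM for complex IV and 118 RPKM for complex V, and 52.2 RPKM for complex I and 50.6 RPKM for complex III. No mitochondrially encoded subunit is in the table (0 entries), so the other genome's share was not analysed here.

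Complex I held NDUFS5, an accessory subunit, as its most abundant transcript (231 RPKM). NDUFS1, the core subunit with the largest set of iron-sulphur clusters, was at 32.3 RPKM. NDUFV1 and NDUFV2, which form the site of NADH oxidation, were at 58.7 and 93.9 RPKM, and the core subunits NDUFS3 and NDUFS8 at 47.6 and 60.1 RPKM. NDUFA4 carries a complex I name but is known as a subunit of complex IV, and its 52.2 RPKM stood far over the 0.124 RPKM of NDUFA4L2, a paralogue known to be induced in low oxygen. In complex III, UQCRH, the hinge protein, was highest (229 RPKM). The core proteins UQCRC1 and UQCRC2 had 79.3 and 105 RPKM, the Rieske iron-sulphur protein UQCRFS1 62.2 RPKM, and UQCRQ, a small subunit that sits beside cytochrome b, 38.9 RPKM.

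Complex IV showed a clear choice of isoforms. COX4I1, the ubiquitous form of the largest nuclear-encoded subunit, was at 263 RPKM, while COX4I2, known from lung and from low oxygen, had no count in any library. COX6A1 stood at 291 RPKM and its heart and muscle form COX6A2 at 0. COX6B1 had 149 RPKM, and the testis form COX6B2 had 2 counts over the 11 libraries. COX8A had 170 RPKM, and COX8C 4 counts in all. COX7B2 had none. The muscle form COX7A1 was measurable at 6.01 RPKM, under COX7A2 (121 RPKM) and COX7A2L (95.7 RPKM). COX7C was the most abundant of the complex at 341 RPKM. In complex V the catalytic subunit ATP5B led all 79 genes with 431 RPKM, and its partner ATP5A1 had 279 RPKM. The 3 genes for the same mature c-ring protein were unequal, with 206 RPKM for ATP5G2, 91.8 for ATP5G1 and 38.1 for ATP5G3. At the low end, NDUFC2-KCTD14 (0.063 RPKM), ATP5L2 (0.239 RPKM) and UQCRHL (7.86 RPKM), all among the 8 entries that encode no classical subunit, were the lowest of the tested entries of complexes I, V and III. The 6 untested entries were COX4I2, COX6A2, COX7B2, COX6B2, COX8C and ATP5J2-PTCD1, which had 32 counts in all.

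**Figure D1:**
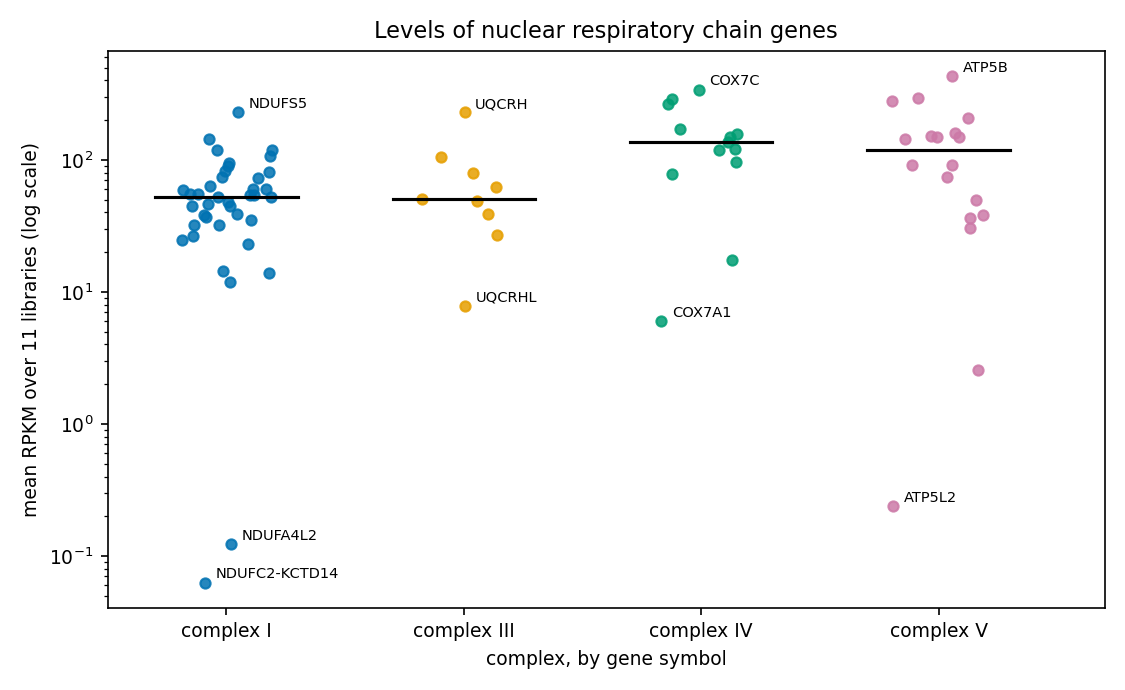
Mean RPKM over 11 libraries (log scale) of the 79 tested genes, by the complex their symbol names. Points are genes and bars are medians, 136 and 118 RPKM for complexes IV and V and 52.2 and 50.6 for I and III, with a few isoforms and copies far below the rest.

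These genes are short. The length the table gives for each entry had a median of 921 bases over the 79, against 3031 bases over all tested entries, and 5.28% of all were at most that short. They were also measured evenly. The median spread within groups (SD of log2 CPM) was 0.0826, against 0.155 for all tested entries and 0.114 for 1611 others of like length and level. The GC content of their longest coding transcript ranged from 35% for NDUFA5 to 69.6% for ATP5D, with a median of 48.2%, against 48.5% for all. Length and GC content both matter below, because libraries differed in how their counts followed each of them. Pseudogenes are a further limit: 41 of the 85 have at least 1 named pseudogene in GENCODE 29, 148 in all, among them 12 of NDUFB4 and 12 of NDUFA5, and the labels do not say how reads shared with them were counted.

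The first question was what siGlut1 did in high glucose. UQCRQ was the only gene of the 79 past the threshold (Benjamini-Hochberg adjusted p under 0.05 over all 14324 entries in edgeR's quasi-likelihood test). It stood at 49.4, 56.2 and 59.5 CPM in HGSiG, against 71.7 and 72.5 CPM in HGNS. All 3 siGlut1 libraries were lower than both non-silencing ones, and the fitted log2 fold change was -0.39 ± 0.08 (SE, adjusted p = 0.0249). In control glucose UQCRQ had 67.4, 68.2 and 66.4 CPM in SiG, against 68.2, 67.0 and 70.1 CPM in NS, which overlap (log2 fold change -0.02 ± 0.07, adjusted p = 0.912). The difference between these effects was -0.37 ± 0.11, with an adjusted p of 0.999 and an unadjusted p of 0.00559. The call in high glucose held without any single control-glucose library and without HGSiG 3. It was lost without HGSiG 1 (adjusted p = 0.0557) or HGSiG 2 (0.0722). Of all entries, 1.83% and 0.912% were called there, beside 4.11% with all 11 libraries. It was also lost without HGNS 1 or HGNS 3, which leaves 1 library in HGNS. Fewer of all entries were called there too. Log2 fold changes of UQCRQ were -0.45 to -0.32 over all 11 leave-outs.

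The rest of the genes leaned the same way without passing. Of all tested entries, 4.11% were called in this comparison and 1.64% as lower, beside 1 of 79 here, so the count of calls is near the background. The count was 2 without NS 2 (2.56%, beside 4.2% of all entries) and 6 without NS 3 (7.59%, beside 7.57%). The median log2 fold change of the 79 was -0.148, against -0.00048 for all tested entries, and 71 of 79 were below 0. In 50 of them (63.3%) all 3 HGSiG libraries lay under both HGNS libraries, as in 22.0% of all entries. By complex, the medians were -0.145 for I, -0.117 for III, -0.148 for IV and -0.168 for V, with 34 of 39, 9 of 9, 12 of 13 and 16 of 18 genes below 0. At an unadjusted p under 0.05 there were 21 genes (26.6%, beside 20.8% of all entries), all 21 lower. Next to UQCRQ came NDUFB4 (-0.35 ± 0.09, adjusted p = 0.0523), NDUFA2 (-0.28 ± 0.07, 0.0554), COX6B1 (-0.29 ± 0.08, 0.0563) and ATP5A1 (-0.22 ± 0.06, 0.0623). COX7A1 was the exception in direction, with all of HGSiG above HGNS (5.13, 5.71 and 4.63 CPM against 4.17 and 4.11 CPM), but its log2 fold change of 0.32 ± 0.17 did not pass (adjusted p = 0.330). The lower end of the range was held by an entry of few counts. ATP5L2 was at 0.0834, 0.275 and 0.199 CPM in HGSiG against 0.25 and 0.83 CPM in HGNS, and its log2 fold change of -1.50 did not pass either (adjusted p = 0.246).

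As counted, control glucose showed no such lean. The median log2 fold change of siGlut1 against non-silencing siRNA was 0.0027, with 38 of 79 genes below 0, and edgeR called 0 of 79, where it called 2.96% of all entries, and DESeq2 called 0, where it called 7.78% of all. At an unadjusted p under 0.05 there were 4 genes (5.06%, beside 17.4% of all entries), 1 of them lower. Groups did not overlap for 3 genes on the lower side (NDUFB4, ATP5A1 and ATP5SL, where 9.60% of all entries lay lower in this way) and for 7 on the higher side (8.86%, beside 11% of all entries, so no more than the background). COX7A2, the ubiquitous form of a small complex IV subunit, was among these 7, with 103, 100 and 112 CPM in SiG against 94.4, 94.7 and 85.3 CPM in NS (0.20 ± 0.07, adjusted p = 0.167). The same gene lay on the other side in high glucose, at 85.2, 95.1 and 93.0 CPM in HGSiG against 99.8 and 102 CPM in HGNS (-0.15 ± 0.08, adjusted p = 0.328). Over all genes, the median of the difference between media was -0.144, with 73 of 79 below 0, but none was called by edgeR or DESeq2 (0 of 79, as 0% of all entries by edgeR), with 8 at an unadjusted p under 0.05 (10.1%, beside 2.75% of all entries).

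The second question was what high glucose did. With siGlut1, the median log2 fold change of high against control glucose was -0.159, against -0.0178 for all tested entries, and 72 of 79 genes were below 0. This comparison uses the same HGSiG libraries as the one above. None of the 79 passed in edgeR (0.0140% of all entries did), with 33 at an unadjusted p under 0.05 (41.8%, beside 15.2% of all entries), 32 of them lower. DESeq2 called 8 (10.5% of those it gave an adjusted p, beside 3.57% of all entries). For 42 genes (53.2%) all HGSiG libraries lay under all SiG libraries, as for 11.7% of all entries. UQCRQ, with the values given above, had a log2 fold change of -0.29 ± 0.07 (adjusted p = 0.151), and UQCR11, a small complex III subunit, had 52.6, 61.7 and 60.2 CPM in HGSiG against 72.2, 78 and 74.9 CPM in SiG (-0.37 ± 0.09, adjusted p = 0.151). NDUFS1 was the only gene with all HGSiG libraries above SiG, at 125, 134 and 127 CPM against 119, 110 and 121 CPM (0.14 ± 0.06, adjusted p = 0.312). COX4I1 had 206, 212 and 219 CPM in HGSiG against 240, 247 and 232 CPM in SiG (-0.17 ± 0.06, adjusted p = 0.211).

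With non-silencing siRNA, the glucose effect had a median of -0.0106, with 42 of 79 genes below 0. edgeR called 0 of 79, as it did of all entries (0%), with 7 genes at an unadjusted p under 0.05 (8.86%, beside 5.4% of all entries). DESeq2 called 1 (1.27%, beside 0.230% of all entries). HGNS lay wholly under NS for 6 genes, where 9.24% of all entries did so, and wholly over NS for 14 (17.7%, beside 8.61% of all entries). NDUFC2, a subunit of the membrane arm of complex I, was among the 14, at 34.7 and 35.7 CPM in HGNS against 30.8, 29.9 and 28.7 CPM in NS (0.24 ± 0.07, adjusted p = 0.795). NDUFS1 was another, at 136 and 128 CPM in HGNS against 114, 113 and 114 CPM in NS (0.21 ± 0.07, adjusted p = 0.866). So was ATP5A1, at 677 and 638 CPM in HGNS against 575, 592 and 594 CPM in NS (0.16 ± 0.06, adjusted p = 0.872). Averaged over both siRNAs, high glucose called 0 of 79 in edgeR, beside 0.412% of all entries, and 5 in DESeq2 (6.58%, beside 4.10% of all entries). In edgeR 22 were at an unadjusted p under 0.05 (27.8%, beside 16.9% of all entries), and the median was -0.0786. Without NS 3, edgeR called 5 (6.33%, beside 5.96% of all entries).

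Read by library, the lean as counted sat in 1 group. Each gene's log2 CPM was set against its own mean over the 11 libraries, and the median of the 79 genes was taken in each library. It was -0.168, -0.0765 and -0.0661 in HGSiG 1, 2 and 3. It was 0.0351 and 0.0446 in HGNS, 0.0345, 0.0173 and 0.0492 in SiG, and 0.00408, 0.0426 and 0.0546 in NS. The 3 HGSiG libraries therefore lay below the other 8, and HGSiG 1 lay furthest, with 75 of 79 genes under their own mean. Without HGSiG 1 the median of siGlut1 against non-silencing siRNA in high glucose was -0.11. Between replicates of a group, the median per library had a pooled SD of 0.0344 as counted.

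**Figure D2:**
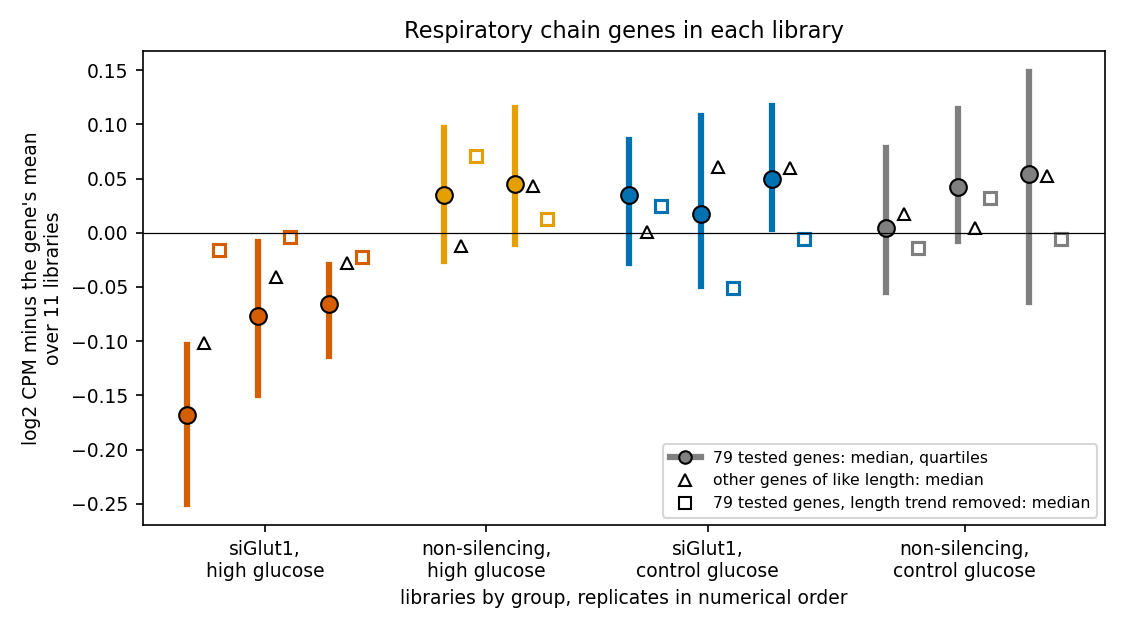
Filled points and bars give the median and quartiles, over the 79 tested genes, of log2 CPM minus each gene's mean over 11 libraries, for the libraries of each group in the order of their numbers. Triangles are other genes of like length and open squares the 79 genes after each library's length trend was removed. HGSiG lies at -0.168 to -0.0661 as counted, and all libraries lie between -0.0509 and 0.0706 once the trend is removed.

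Other short genes moved in the same libraries. Across all 14324 entries, Spearman's rho between length and the log2 fold change was 0.238 for siGlut1 in high glucose and 0.378 for high glucose with siGlut1, against -0.0604 for siGlut1 in control glucose and 0.0376 for high glucose with non-silencing siRNA. These are descriptions over genes that share libraries. For siGlut1 in high glucose the 79 had a median log2 fold change of -0.148, against -0.0734 for the 4273 other genes between 503 and 2205 bases, the middle of their range. For high glucose with siGlut1 it was -0.159, against -0.0955 for those others. Of the 79, 63.3% lay wholly lower in HGSiG than in HGNS, against 30.0% of the others, and 53.2% wholly lower in HGSiG than in SiG, against 19.0% of the others. The match to these others is loose, as the 79 span 354 to 5223 bases and 44 of them have at most 1000. The others were also not matched on level or on spread within groups. That spread was 0.0826 for the 79 and 0.114 for others of like length and level. What length had to do with either was not tested beyond these values and the fits below.

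In bins of length the comparison depended on the contrast. For siGlut1 in high glucose, the 21 genes of at most 600 bases had a median of -0.168, against -0.116 for 257 others, and the 23 genes of 600 to 1000 bases -0.148, against -0.123 for 620 others. Those of 1000 to 2000 bases (23) had -0.124, against -0.0705 for 2851 others, and the 12 longer ones -0.0918, against 0.028 for 10516 others. The respiratory chain genes thus lay lower than others in each bin. For high glucose with siGlut1 the medians in the same order were -0.208 against -0.231, -0.134 against -0.16, -0.0845 against -0.0886, and -0.111 against 0.0196. Only the 12 longest lay lower than others, in the bin that is not of like length.

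**Figure D3:**
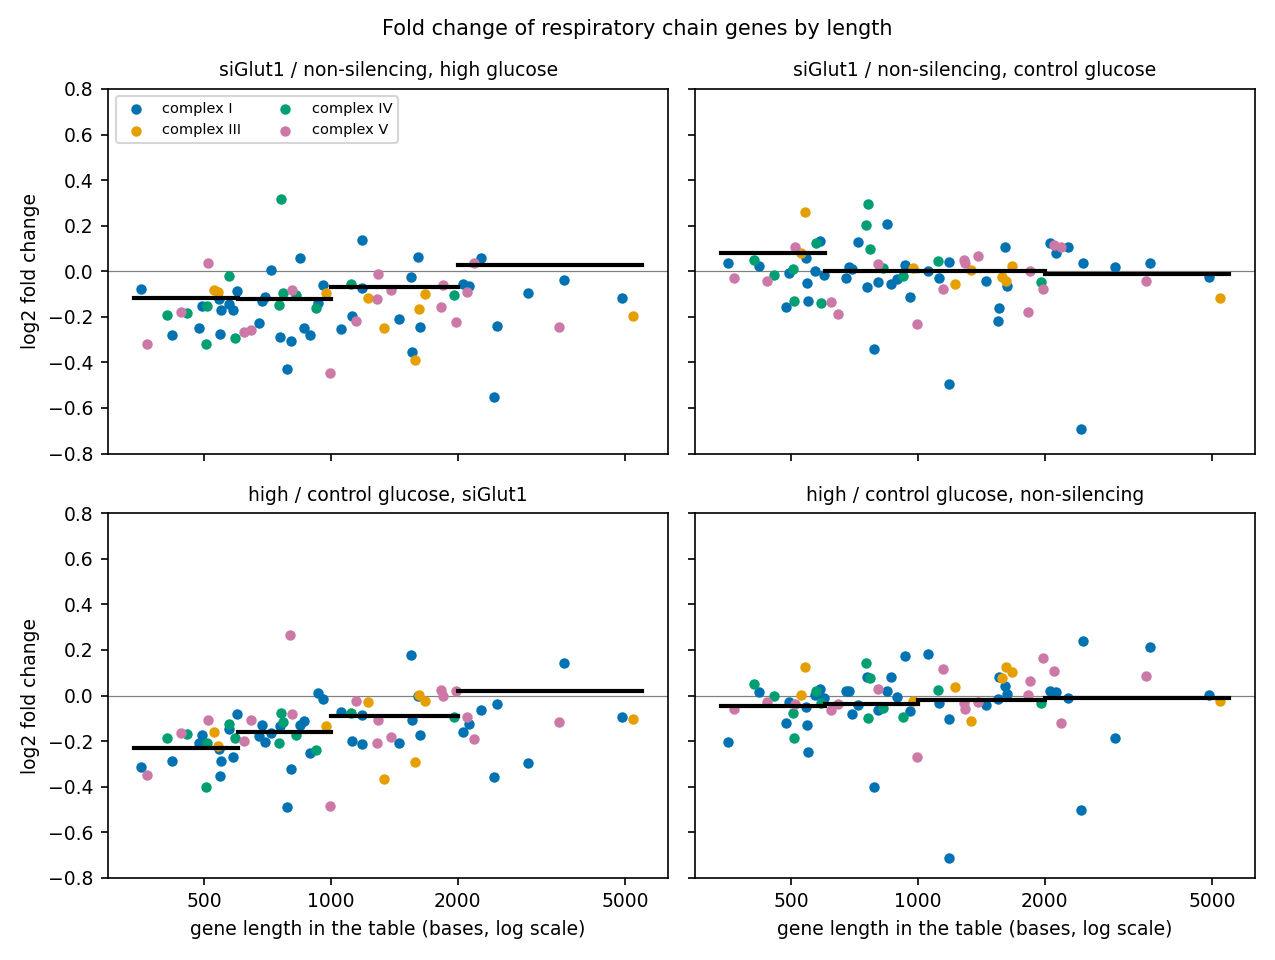
Log2 fold change of the tested genes against the length the table gives them (log scale), in 4 comparisons, coloured by complex. Black bars are the medians of all other tested genes in 4 bins of length, and 3 points of 1 gene, ATP5L2, lie outside the axis of ±0.8. The last bin holds every other entry over 2000 bases, also those longer than the axis shows. In both comparisons that have HGSiG on top, the black bars of the longest bin lie highest, at 0.028 and 0.0196, and those of the bins up to 1000 bases lie at -0.116, -0.123, -0.231 and -0.16.

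When each library's trend of log2 CPM on length was fitted over all genes and taken out, the median for siGlut1 in high glucose became -0.0444, with 55 of 79 genes below 0, and that for high glucose with siGlut1 became 0.00365, with 39 of 79 below 0. UQCRQ kept its call in high glucose (-0.32 ± 0.07, adjusted p = 0.0346), but lost it when a replicate block was added to this fit. By complex, the medians for siGlut1 in high glucose were then -0.0432 for I, -0.0343 for III, -0.0328 for IV and -0.0775 for V. The median over all tested entries was 0.000536 in this fit. By library, the median deviation of the 79 was then -0.0159, -0.00431 and -0.0228 in HGSiG and 0.0706 and 0.0126 in HGNS. It was 0.0244, -0.0509 and -0.00553 in SiG, and -0.0143, 0.0325 and -0.00534 in NS. HGSiG thus no longer lay below all other libraries, and HGNS 1 lay highest.

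GC content ran along with the glucose comparisons. Spearman's rho of GC content with the log2 fold change was -0.399 for high glucose with siGlut1 and -0.552 with non-silencing siRNA over the 79, and -0.529 and -0.354 over the 13689 entries with a value. For siGlut1 it was -0.0445 in high and 0.165 in control glucose over all. The 9 tested genes of at least 60% GC show it by library. Their median deviation from their own means was -0.287, -0.136 and -0.183 in HGSiG and -0.166 and 0.129 in HGNS, 0.0493, 0.151 and 0.0017 in SiG, and 0.155, 0.144 and -0.00994 in NS. The 2113 other entries of such GC content had -0.154, -0.109 and -0.0339 in HGSiG and -0.19 and 0.0517 in HGNS, 0.0597, 0.218 and 0.00854 in SiG, and 0.174, 0.125 and -0.0913 in NS. Replicates of 1 group, such as HGNS 1 and HGNS 3, thus lay apart for genes rich in GC.

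NDUFS7, a core iron-sulphur subunit of complex I with 64.9% GC, is an example. It had 20.9, 25.5 and 23.8 CPM in HGSiG and 22.1 and 41 CPM in HGNS, 32.3, 38.6 and 27.6 CPM in SiG, and 48, 43.5 and 33.6 CPM in NS. ATP5D, the delta subunit of the ATP synthase, with 69.6% GC, had 27.1, 29.7 and 28.1 CPM in HGSiG and 31.6 and 45.5 CPM in HGNS, 38.4, 48.2 and 32.1 CPM in SiG, and 52.5, 52.8 and 34.5 CPM in NS. Both had their lowest non-silencing values in HGNS 1 and NS 3. They had the lowest log2 fold changes of the 79 as counted for high glucose with siGlut1, -0.49 ± 0.21 (adjusted p = 0.3001) for NDUFS7 and -0.49 ± 0.19 (0.270) for ATP5D. NDUFA5, with the least GC, had 35.4, 37.6 and 36 CPM in SiG, against 35, 33.1 and 58.6 CPM in NS, where NS 3 stood apart.

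With the trends on both length and GC content taken out, the median of the 79 was -0.0466 for siGlut1 in high glucose, -0.0287 for siGlut1 in control glucose, -0.00812 for high glucose with siGlut1 and 0.0328 for high glucose with non-silencing siRNA. Below 0 were 59, 49, 42 and 28 of the 79 in the same order. UQCRQ was again called in high glucose (-0.35 ± 0.06, adjusted p = 0.0109). In control glucose 1 gene, ATP5SL, an accessory factor known for complex I assembly, was called in this fit (-0.22 ± 0.05, adjusted p = 0.0305), which is 1.27% of the 79, beside 5.75% of all entries.

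**Figure D4:**
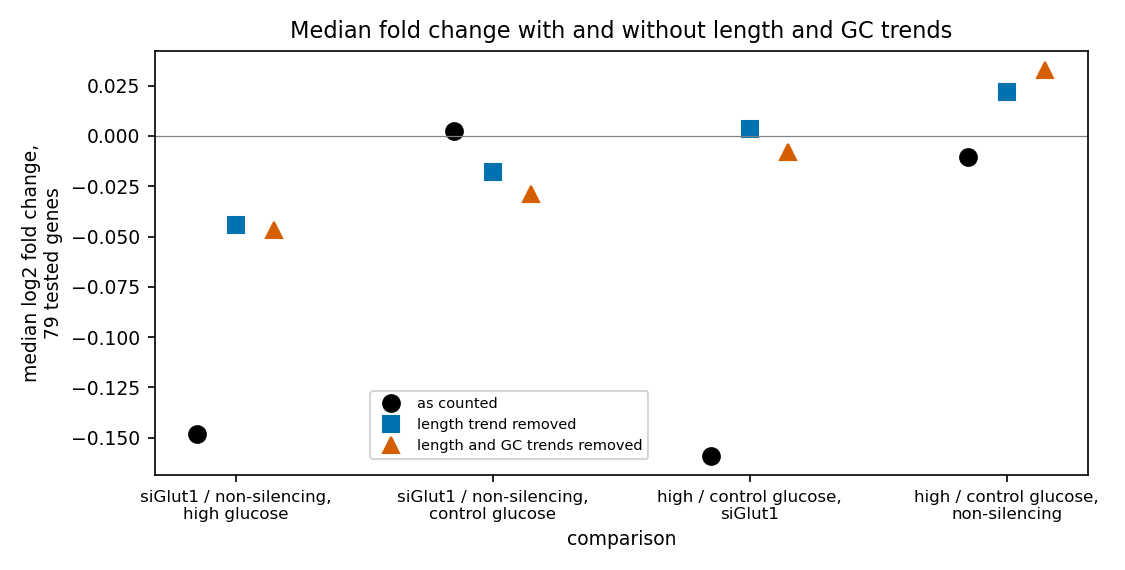
Median log2 fold change of the 79 tested genes in 4 comparisons, as counted, with each library's length trend removed, and with length and GC trends removed. The medians of -0.148 and -0.159 shrink to between -0.0466 and 0.00365. The other 2 move away from 0 and change sign. With both trends removed, siGlut1 in control glucose goes from 0.0027 to -0.0287. High glucose with non-silencing siRNA goes from -0.0106 to 0.0328.

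Averaging the siRNA effect over both media puts 6 siGlut1 libraries against 5 non-silencing ones. Here 5 of the 79 genes passed, all lower (6.33%, beside 6.49% of all entries called lower and 14.4% called in either direction), so the share is that of the background. They are UQCRQ of complex III, NDUFB4 of complex I, COX6B1 of complex IV, and ATP5H and ATP5A1 of complex V. The count was 1 without HGNS 1 or HGNS 3, 2 without SiG 1, 3 without HGSiG 1, HGSiG 2 or NS 2, 9 without NS 3 and 8 without SiG 3, and in each of these the share of all entries called was higher than that of the genes. The median of the 79 was -0.0796, with 62 below 0. After the length trend was removed 2 of the 5 were still called, UQCRQ and NDUFB4, and after length and GC trends were removed all 5 were, with NDUFV1, NDUFS7, ATP5D and ATP5SL added, so 9 of 79, where 19.2% of all entries were then called.

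NDUFB4, an accessory subunit of the membrane arm, had 58, 56.8 and 53.5 CPM in HGSiG against 75.5 and 67.9 CPM in HGNS, and 62.2, 60.2 and 59.1 CPM in SiG against 64.7, 62.8 and 75.7 CPM in NS. Every siGlut1 library lay below every non-silencing library of its medium. Its average log2 fold change was -0.26 ± 0.06 (adjusted p = 0.0166). It was lost without HGNS 1 (0.0932) and in no other leave-out.

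COX6B1, the subunit that joins complex IV dimers on the side of cytochrome c, had 79.8, 77.7 and 86.1 CPM in HGSiG against 98.7 and 100 CPM in HGNS, and 90.9, 97.2 and 88.7 CPM in SiG against 103, 106 and 95.5 CPM in NS. The groups were apart in high glucose and overlapped in control glucose. Its average was -0.21 ± 0.05 (adjusted p = 0.0175), lost without HGNS 1 (0.0717) or HGNS 3 (0.0750). UQCRQ had an average of -0.21 ± 0.05 (adjusted p = 0.0263), lost without HGNS 1 (0.0889), HGNS 3 (0.0956) or SiG 1 (0.0542), and its values above show no such difference in control glucose.

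ATP5A1, the alpha subunit of the catalytic head, had 555, 569 and 568 CPM in HGSiG against 677 and 638 CPM in HGNS, and 556, 555 and 558 CPM in SiG against 575, 592 and 594 CPM in NS. The siGlut1 libraries were alike in both media and lower than the non-silencing ones in each. Its average was -0.15 ± 0.04 (adjusted p = 0.0293). ATP5B, its partner in the head, had 783, 875 and 844 CPM in HGSiG against 861 and 879 CPM in HGNS, and 821, 809 and 873 CPM in SiG against 842, 821 and 836 CPM in NS, and overlapped in both media. ATP5H, a subunit of the stalk that holds the head in place, had 77.1, 83.8 and 85.6 CPM in HGSiG against 99.9 and 97.8 CPM in HGNS, and 91, 92 and 100 CPM in SiG against 94.5, 101 and 114 CPM in NS. Its average was -0.20 ± 0.06 (adjusted p = 0.0461). The call of ATP5A1 held in 3 of 11 leave-outs (NS 1, NS 3 or SiG 3) and was lost without any other library, with adjusted p of 0.0298 to 0.153. That of ATP5H held in 2 (NS 1 or SiG 3) and was lost without any other, with adjusted p of 0.02998 to 0.148.

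**Figure D5:**
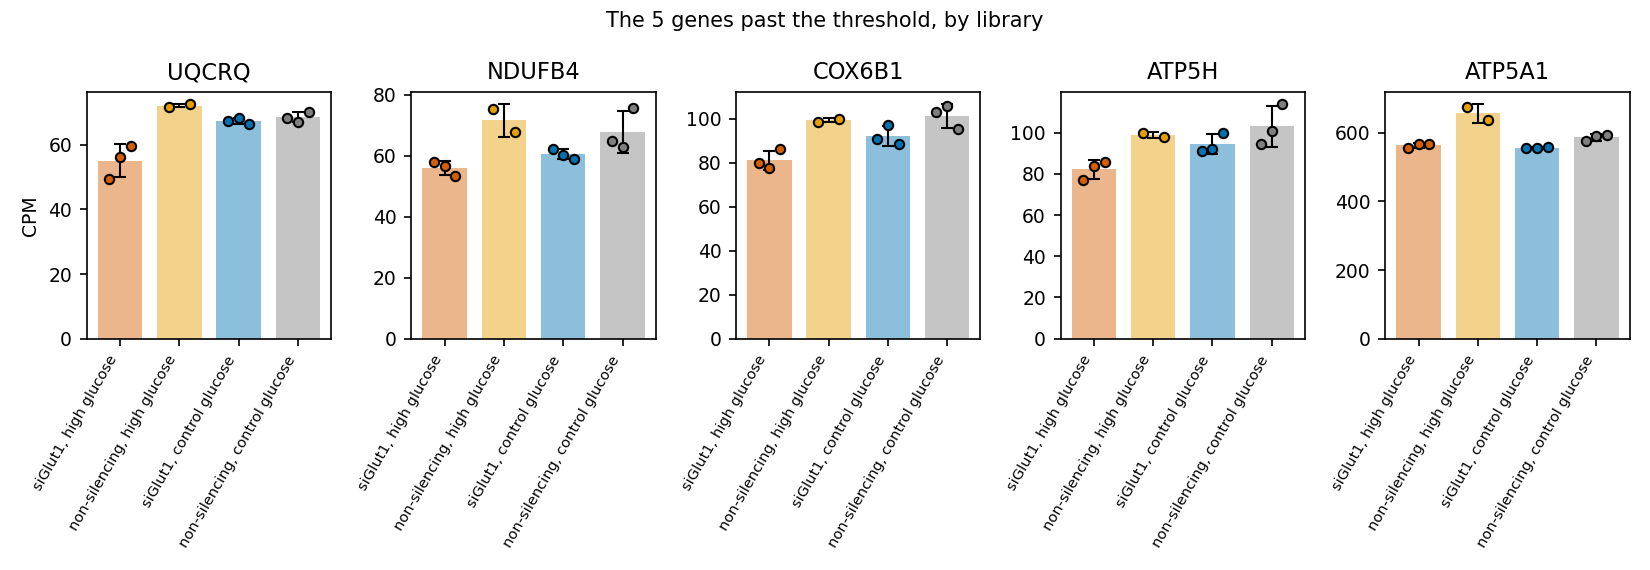
CPM of the 5 genes past the threshold, with bars at the group mean, whiskers of 1 SD and a point per library (n = 3, and 2 for HGNS). UQCRQ is low in HGSiG alone, while NDUFB4 and ATP5A1 are lower with siGlut1 in both media.

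The promoters of these genes were read to see whether they share known elements. Respiratory genes are known as targets of NRF1, of ETS factors such as NRF2 (GABP), of YY1 and of SP1. RefSeq windows of 250 bases before to 50 after the start (GRCh38.p14) were at hand for 68 of the 85 genes, 82 windows in all, and all 85 symbols were matched. Of the 5 called genes, 4 are shown, each 5′ to 3′ on the gene's strand, with motif letters in capitals. ATP5A1 has 2 windows and is not shown. The windows are chr5:132866392-132866691 (plus strand) for UQCRQ, chr3:120596086-120596385 (plus) for NDUFB4, chr19:35648073-35648372 (plus) for COX6B1 and chr17:75046920-75047219 (minus) for ATP5H.
UQCRQ: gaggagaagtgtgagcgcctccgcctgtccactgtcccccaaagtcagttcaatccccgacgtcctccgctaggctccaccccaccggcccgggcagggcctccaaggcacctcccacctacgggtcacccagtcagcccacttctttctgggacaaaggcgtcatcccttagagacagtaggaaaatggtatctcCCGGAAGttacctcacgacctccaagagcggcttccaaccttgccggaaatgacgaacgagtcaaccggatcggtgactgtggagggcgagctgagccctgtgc
NDUFB4: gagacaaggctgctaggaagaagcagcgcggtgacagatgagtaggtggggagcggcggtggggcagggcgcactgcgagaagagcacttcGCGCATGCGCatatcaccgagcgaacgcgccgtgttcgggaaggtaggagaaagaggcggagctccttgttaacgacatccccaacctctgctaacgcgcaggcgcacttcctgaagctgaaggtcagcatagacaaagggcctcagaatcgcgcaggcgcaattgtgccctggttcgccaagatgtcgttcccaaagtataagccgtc
COX6B1: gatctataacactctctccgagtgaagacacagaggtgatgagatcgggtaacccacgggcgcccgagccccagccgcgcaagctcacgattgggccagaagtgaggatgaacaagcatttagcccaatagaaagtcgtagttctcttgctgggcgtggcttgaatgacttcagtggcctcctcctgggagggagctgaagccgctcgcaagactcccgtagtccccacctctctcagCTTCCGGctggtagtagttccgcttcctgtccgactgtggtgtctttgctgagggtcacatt
ATP5H: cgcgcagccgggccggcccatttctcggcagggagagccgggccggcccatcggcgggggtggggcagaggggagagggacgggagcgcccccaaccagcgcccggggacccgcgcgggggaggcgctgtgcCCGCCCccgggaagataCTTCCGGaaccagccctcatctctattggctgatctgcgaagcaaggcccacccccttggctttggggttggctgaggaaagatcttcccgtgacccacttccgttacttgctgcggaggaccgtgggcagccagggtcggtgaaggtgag
The capitals mark the ETS letters CCGGAAG in UQCRQ, starting 54 bases before the start, and their complement CTTCCGG in COX6B1 and ATP5H, 12 and 101 bases before it. In NDUFB4 they mark 2 overlapping matches of the NRF1 letters GCGCATGCG, on opposite strands, 159 and 158 bases before the start, and in ATP5H also CCGCCC, the complement of the SP letters.

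Over the 82 windows, with both strands searched, GCGCATGCG was in 12.2%, against 1.92% of all 35116 RefSeq windows. CCGGAAG was in 24.4%, against 10.3%. AAGATGGCG, the YY1 letters, was in 11%, against 1.75%, and GGGCGG, the SP letters, in 59.8%, against 45%. The RefSeq windows were not limited to genes expressed in these cells. Whether expressed genes in general differ from them in the same way was not tested. Some windows overlap, such as those of COX4I1 and COX4NB, and each was counted. The motifs did not sort the genes by their change. The median log2 fold change for siGlut1 in high glucose was -0.146 for the 10 tested genes with the NRF1 letters and -0.15 for the 54 without, -0.153 and -0.148 for 19 with and 45 without the ETS letters, -0.148 and -0.15 for 8 with and 56 without the YY1 letters, and -0.137 and -0.156 for 41 with and 23 without the SP letters. A match of letters is a description and not a bound site.

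Further genes of the pathway, which the symbol rule does not take, were counted from the same fit, in lists chosen with results of these data known. In high glucose 1 of the 4 subunits of complex II, which feeds in electrons from succinate, was lower with siGlut1: SDHC had a mean of 26.5 RPKM in HGSiG against 33.5 RPKM in HGNS (-0.31 ± 0.08, adjusted p = 0.0487). Among 22 assembly factors of complex IV, COX17 and COA5 were lower. COX17, the chaperone that hands copper to complex IV, had a mean of 15.2 RPKM in HGSiG against 25.8 RPKM in HGNS (-0.73 ± 0.18, adjusted p = 0.0415), and of 15.6 RPKM in SiG against 23.4 RPKM in NS (-0.57 ± 0.16, adjusted p = 0.0808). COA5 had 5.19 RPKM in HGSiG against 7.11 RPKM in HGNS (-0.43 ± 0.10, adjusted p = 0.0416).

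Of 5 genes of cytochrome c and electron transfer, ETFDH was lower in both media. It encodes the oxidoreductase that brings electrons from fatty acid oxidation to ubiquinone, and it had a mean of 8.37 RPKM in HGSiG against 11.5 RPKM in HGNS (-0.43 ± 0.09, adjusted p = 0.0295), and of 7.68 RPKM in SiG against 10.1 RPKM in NS (-0.37 ± 0.08, adjusted p = 0.0430). The lists held 90 tested genes in all, and the other calls in high glucose came to 1. Of 18 regulators, PPRC1, a coactivator of the PGC-1 family, was higher, at 11.8 RPKM in HGSiG against 9.21 RPKM in HGNS (0.39 ± 0.09, adjusted p = 0.0344). In high glucose 5 of the 90 were thus called, beside 4.11% of all entries, which is near the background. In control glucose 1 of the 90 was called, beside 2.96% of all entries, which is below it.

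In the average over both media 15 of these 90 genes were called, near the share of 14.4% of all entries. The 11 lower ones were SDHC, SDHD, COX17, COA5, ETFDH, ETFB, the assembly factors ECSIT, TTC19 and ATPAF1, the coenzyme Q kinase-like ADCK4 and the phosphate carrier SLC25A3. The 4 higher ones were the regulators PPRC1, PPARGC1B, MYC and C10orf2 (Twinkle, the mitochondrial helicase). Of these 15, COX17 had the largest change as counted, with an average log2 fold change of -0.65 ± 0.12 (adjusted p = 0.00483). With the length trend removed 14 of the 15 were still called, with ATPAF1 lost (adjusted p = 0.0523). All 15 were called with length and GC trends removed. Of the 5 called for siGlut1 in high glucose, 2 were still called in either fit, COX17 and ETFDH. Both were also called in control glucose in either fit. There COX17 was at -0.60 ± 0.13 (adjusted p = 0.0303) with the length trend removed and -0.58 ± 0.12 (0.0199) with both removed. Of all entries, 3.62% and 5.75% were called there. With both trends removed TTC19 (-0.30 ± 0.06, adjusted p = 0.0141) and ECSIT (-0.30 ± 0.07, 0.0293) also passed in high glucose, where 6.58% of all entries did.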

How the data were processed

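The deposited table holds raw counts and RPKM values per gene symbol for each library, with a length per entry, per the file headers. The submitters' processing notes name hg19 and DESeq2 without versions, and for the aligner and counter the name is not given in the sources used. The labels name both a TruSeq stranded and a SMARTER library kit, without saying which library had which. RPKM values made by the authors served for levels between genes, and CPM from the deposited counts for levels between libraries.

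Entries on chromosome Y and XIST were dropped, which left 23274 of 23398. edgeR 4.0.16 (R 4.3.3, limma 3.58.1) fitted 4 groups over 11 libraries with TMM scaling, its default low-count filter and the quasi-likelihood test. P-values were adjusted by Benjamini-Hochberg over 14324 entries, with a threshold of 0.05 and 7 residual degrees of freedom. Dispersion was shared over groups, so HGNS with 2 libraries is assumed to vary like the rest. Fold changes are siGlut1 over non-silencing siRNA and high over control glucose, and averages weight both media equally. The scripts were tested on simulated data.

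The genes, lists and tests were chosen with earlier results of these data known. Genes were named by rule: calls, marker genes, the highest and lowest by level or change, and isoforms; other names, such as UQCR11 and NDUFA2, were picked after their values were seen. Trends on length were removed per library by loess offsets; the removal of GC trends, the bins of length and the restriction to 77 subunits were added after the data were seen. GC content is that of the longest coding transcript in GENCODE 29. Alternatives also covered scaling, filters, halved counts, DESeq2 1.42.0, the replicate block and left-out libraries.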

Additional observations from a re-analysis of the deposited data

Results flagged for a closer look

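For UQCRQ and COX7A2 the libraries of 1 siRNA or medium all lay on one side and those of the other on the opposite side, so that their effects had opposite directions. The log2 glucose effect on UQCRQ with siGlut1 minus that with non-silencing siRNA was -0.37 ± 0.11, with an adjusted p of 0.999 in edgeR's quasi-likelihood test. For COX7A2 the siRNA effect in high minus that in control glucose was -0.35 ± 0.11 (adjusted p = 0.999), which is the same quantity as its glucose effect with siGlut1 minus that with non-silencing siRNA, -0.35. Neither difference passed the test.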

How the results depend on the processing

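The share of all entries called under the same setting stands in brackets after a count. Counts as reported and ranges with 1 library left out carry none, and the share of all entries moved over those leave-outs as well. Of the respiratory chain genes (79 tested as reported, 76 to 82 under the alternatives), 1 was called for siGlut1 in high glucose as reported. It was 4 (5.17%) when genes needed 1 CPM in 6 libraries, 15 (12.8%) with all 12 columns (the averaged HGNS column included), 13 (11.8%) without both control-glucose replicates numbered 3, 2 (4.47%) with counts halved, 8 (8.28%) with only the groups compared, 10 (9.98%) with DESeq2, and 0 to 6 with 1 library left out. For the siGlut1 average it was 5 as reported, and 3 (10.4%) with no filter, 8 (17.1%) with the 1 CPM filter, 15 (22.6%) with all 12 columns, 13 (17.8%) without both replicates numbered 3, 11 (19.7%) with DESeq2, 2 (15%) with the length trend removed, 9 (19.2%) with length and GC trends removed, and 1 to 9 with 1 library left out. For high glucose with siGlut1, without both replicates numbered 3 it was 4 (5.15%) and with DESeq2 8 (3.57%); for the glucose average, 13 (18.1%) and 5 (4.10%), with 5 (3.03%) for all 12 columns and 0 to 5 with 1 library left out; for high glucose with non-silencing siRNA, 1 (0.230%) with DESeq2; and for siGlut1 in control glucose, 1 (5.75%) with length and GC trends removed. Medians with the length trend removed, and with length and GC trends removed, were -0.0444 and -0.0466 for siGlut1 in high glucose, 0.00365 and -0.00812 for high glucose with siGlut1, -0.0301 and -0.0283 for the difference between media, -0.0436 and -0.0342 for the siGlut1 average and 0.0136 and 0.0104 for the glucose average, and 0.0328 with both removed for high glucose with non-silencing siRNA. With 1 library left out the medians ranged over -0.174 to -0.11, -0.179 to -0.111, -0.162 to -0.113, -0.0923 to -0.0586 and -0.0897 to -0.049 in the same order, over -0.0155 to 0.0124 for high glucose with non-silencing siRNA and over -0.00656 to 0.0135 for siGlut1 in control glucose. Single genes near 0 changed sign: NDUFS1 for siGlut1 in control glucose (-0.003821 without both replicates numbered 3) and in high glucose (-0.07825 to 0.01373 with 1 library left out), and COX4I1 in control glucose (-0.02381 with length and GC trends removed, -0.009676 to 0.03859 with 1 library left out) and in high glucose (0.00634 with the length trend removed). Beyond what construction shows (fewer libraries or other entries tested), the cause was not tested.

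Same-numbered libraries had correlations of deviations from -0.25 (HGSiG 2 and SiG 2) to 0.535 (NS 3 and SiG 3). Libraries of different numbers had -0.435 (NS 3 and SiG 2) to 0.262 (HGSiG 2 and SiG 3). Whether the numbers pair the samples was not tested. With the replicate block, 1 gene was called for siGlut1 in high glucose (median -0.153), beside 4.19% of all entries. In the siGlut1 average 5 were called (median -0.0814), beside 15.3% of all entries. Both counts were as without the block. With the length trend removed and the replicate block, both counts were 0, beside 3.57% and 15.3% of all entries. UQCRQ was thus not called there. The medians were then -0.0411 for siGlut1 in high glucose, -0.0392 for the siGlut1 average and -0.0431 for the difference between media. They were 0.0299 and 0.00508 for high glucose with non-silencing siRNA and with siGlut1, and 0.00498 for the glucose average. COX4I1 was at 0.002726 for siGlut1 in high glucose.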
